A study of Mus musculus with 6 samples.

Results

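The cells described here are CD4 T cells of the mouse pancreatic lymph node that carried RNA of genes linked to activation or memory. They were chosen by the UMIs (unique molecular identifiers, each standing for 1 captured RNA molecule) of named genes in each cell. A cell had to hold at least 1 UMI of Cd4, at least 1 of Cd3d, Cd3e or Cd3g, and none of Cd8a, Cd8b1, Foxp3, Cd79a, Trdc, Mki67 or Top2a. Of 7 marker genes (S100a4, Cxcr3, Itgb1, Cxcr6, Maf, Id2 and Ccr2) at least 2 had to be detected, and at most 1 of the follicular helper genes Cxcr5, Pdcd1, Il21, Bcl6 and Tox2. These conditions were met by 1455 cells, out of 12452 cells that met the Cd4, Cd3 and exclusion criteria and 56310 cells of all types that passed the quality limits. Since the choice used measured values, nothing about these 23 genes is a finding, and the cells are called marker-gated cells below.

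Single cells from the pancreatic lymph nodes of 6 mice were profiled on the droplet platform of 10x Genomics, 1 library per mouse. All 6 mice carried a floxed gene, in 3 of them without the CD4-Cre transgene (Cre-negative 1 to 3) and in 3 with it (Cre-positive 1 to 3). CD4-Cre drives Cre recombinase from Cd4 regulatory sequence, which is active in developing T cells before they become CD4 or CD8 cells, so both lineages can carry the deletion. The labels give no strain, sex, age or batch.

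Naive CD4 T cells circulate through lymph nodes by means of homing receptors such as Ccr7 and keep a quiescent state that depends on factors such as Klf2, Lef1 and Tcf7. After meeting antigen they raise Cd44, change their adhesion molecules and chemokine receptors, and can take on helper programmes with characteristic cytokines. Part of these cells persist as memory cells, which respond faster on a later encounter. The pancreatic node drains the pancreas and is a site where T cells meet antigens of the islets.

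The 6 libraries held 8209 to 10936 barcodes and 47149014 to 61321105 UMIs. Each pair of libraries shared 16 to 39 barcodes, and no marker-gated cell was among them. There were 258, 212 and 208 marker-gated cells in Cre-negative 1, 2 and 3, and 255, 321 and 201 in Cre-positive 1, 2 and 3. Their median depth was 5528 UMIs per cell, between 4725 and 6311 by mouse, against 4788 in the cells of the same gate with none of the 7 markers. The cells with the highest Scrublet doublet scores were flagged in each library, at a preset rate of 0.8% per 1000 barcodes. This flagged 4533 of the 56310 cells. Of the marker-gated cells 9.49% were flagged, against 2.51% of the cells without markers. In the follicular helper-like and Foxp3 cells compared below the shares were 5.24% and 10.6%. The part of depth and doublets in the comparisons below was not tested beyond the alternatives that are given.

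The gate was filled mostly through 3 of its 7 markers. Id2, a transcriptional regulator that opposes E proteins, was detected in 82.1% of the marker-gated cells. Itgb1, the beta 1 integrin chain, was detected in 65.7%, and the transcription factor Maf in 50.4%. Cxcr3, the receptor that guides T cells to interferon-induced chemokines, was detected in 15.5% and the calcium-binding protein S100a4 in 11.6%. Cxcr6 reached 11.3% and Ccr2, the receptor for monocyte chemoattractants, 6.87%.

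Detection of Cxcr3 differed between mice. It was found in 10.9%, 12.7% and 13.9% of the marker-gated cells of Cre-negative 1, 2 and 3, and in 23.9%, 14.0% and 17.9% of those of Cre-positive 1, 2 and 3. The highest value thus came from 1 library, Cre-positive 1. As a criterion of the gate, Cxcr3 is not read as a finding. Genes of the gate stayed in the main genotype test below, in which no gene passed.

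Of the 85 marker combinations seen, Itgb1 with Id2 was the commonest, with 469 cells or 32.2%. Maf with Id2 followed with 303 cells, and Itgb1 with Maf and the combination of Itgb1, Maf and Id2 held 108 cells each. No marker other than Id2, Itgb1 and Maf was detected in 988 cells, or 67.9%. A UMI of S100a4, Cxcr3, Cxcr6 or Ccr2 was present in the other 467. Exactly 2 markers were found in 1033 cells (71%), 3 in 273 and 4 or more in 149, and 1 cell held all 7.

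**Figure D1:**
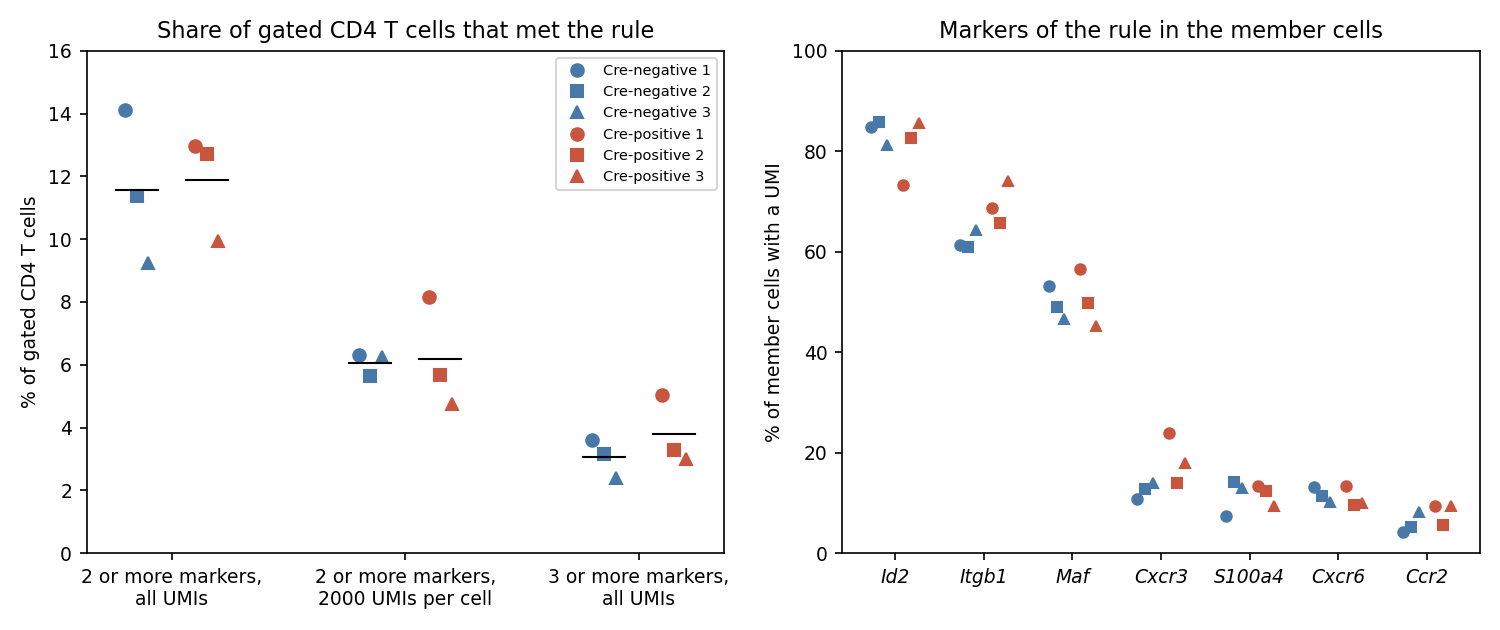
Left, percent of gated CD4 T cells of each mouse that met the marker rule, with 2 markers required, with 3 required, and with 2 required after each cell was thinned to 2000 UMIs; points are mice, lines are group means. Right, percent of marker-gated cells (member cells in the plots) with a UMI of each of the 7 markers, by mouse; Id2, Itgb1 and Maf stand far above the other markers in every mouse, and Cre-positive 1 has the highest value of Cxcr3 at 23.9%.

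The marker-gated cells made up 14.1%, 11.4% and 9.25% of the gated CD4 T cells in Cre-negative 1, 2 and 3, and 12.98%, 12.7% and 9.93% in Cre-positive 1, 2 and 3. The groups overlapped, with means of 11.6% ± 2.44 and 11.9% ± 1.69 (SD, n = 3 mice each). The difference of 0.289 percentage points was smaller than the spread between mice (two-sided exact permutation test, p = 0.9, where 3 mice against 3 cannot go below 0.1). With every cell thinned to 2000 UMIs before gating, the shares were 6.07% ± 0.380 and 6.19% ± 1.76 (exact permutation p = 0.9, n = 3 each). With 3 markers required they were 3.06% ± 0.612 and 3.78% ± 1.10 (exact permutation p = 0.5, n = 3 each).

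The label of activated or memory cells held only in part. Genes of naive cells stayed readily detected in cells just inside the threshold and dropped only where more markers were present. Lef1, a transcription factor of naive and early T cells, had 772 ± 59.1 CPM (UMIs per 1000000 UMIs of the same cells, mean ± SD over 6 mice) in cells with none of the markers, 751 in cells with 1, 557 ± 90.4 in cells with 2, 252 in cells with 3 and 162 in cells with 4 or more. A Lef1 UMI was found in 76.5% of cells with exactly 2 markers and in 43.0% of cells with 4 or more. Cells with 1 marker lie just outside the gate and cells with 2 just inside it, and for Lef1 they differed by less than the cells with 2 and 3 markers did.

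Igfbp4, a binding protein of insulin-like growth factors that is abundant in naive CD4 T cells, had 518, 554, 360, 148 and 59.5 CPM for 0, 1, 2, 3 and 4 or more markers. Ccr7, the chemokine receptor for entry into the node, moved little up to 3 markers, with 344, 357, 348 and 294, and stood at 168 with 4 or more. Both genes were thus lowest in the cells with most markers.

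Genes of activation ran the other way. Cd44, the hyaluronan receptor used as a marker of antigen experience, had 24.4, 29.8, 58.4, 139 and 178 CPM. Icos, a costimulatory receptor, rose over the same steps from 20.9 to 30.0, 78.7, 138 and 269. Il2rb, the receptor chain shared by interleukin 2 and interleukin 15, had 13.5, 30.7, 81.4, 147 and 225, and the scaffold protein gene Ahnak 22.0, 29.3, 74.5, 138 and 296. In each of these genes the largest mean over mice belonged to the cells with 4 or more markers.

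Another set had its largest mean over mice at 3 markers, though single mice differed. Ctla4, the inhibitory receptor for CD80 and CD86, had 29.8, 68.2, 200 and 277 ± 89.3 CPM for 0 to 3 markers. With 4 or more it had 235 ± 99.3, and was higher than with 3 in Cre-negative 2 and 3 and Cre-positive 3. Izumo1r, which encodes folate receptor 4, had 59.2, 128, 304, 380 ± 117 and 311 ± 37.1, with a rise at the last step in Cre-positive 1 and 3. Ikzf2, the transcription factor Helios, had 22.6, 45.3, 127, 249 ± 108 and 148 ± 39.9, with a rise at that step in Cre-negative 2 and 3. These levels are a description without a test, because detecting more markers also depends on a cell's depth.

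**Figure D2:**
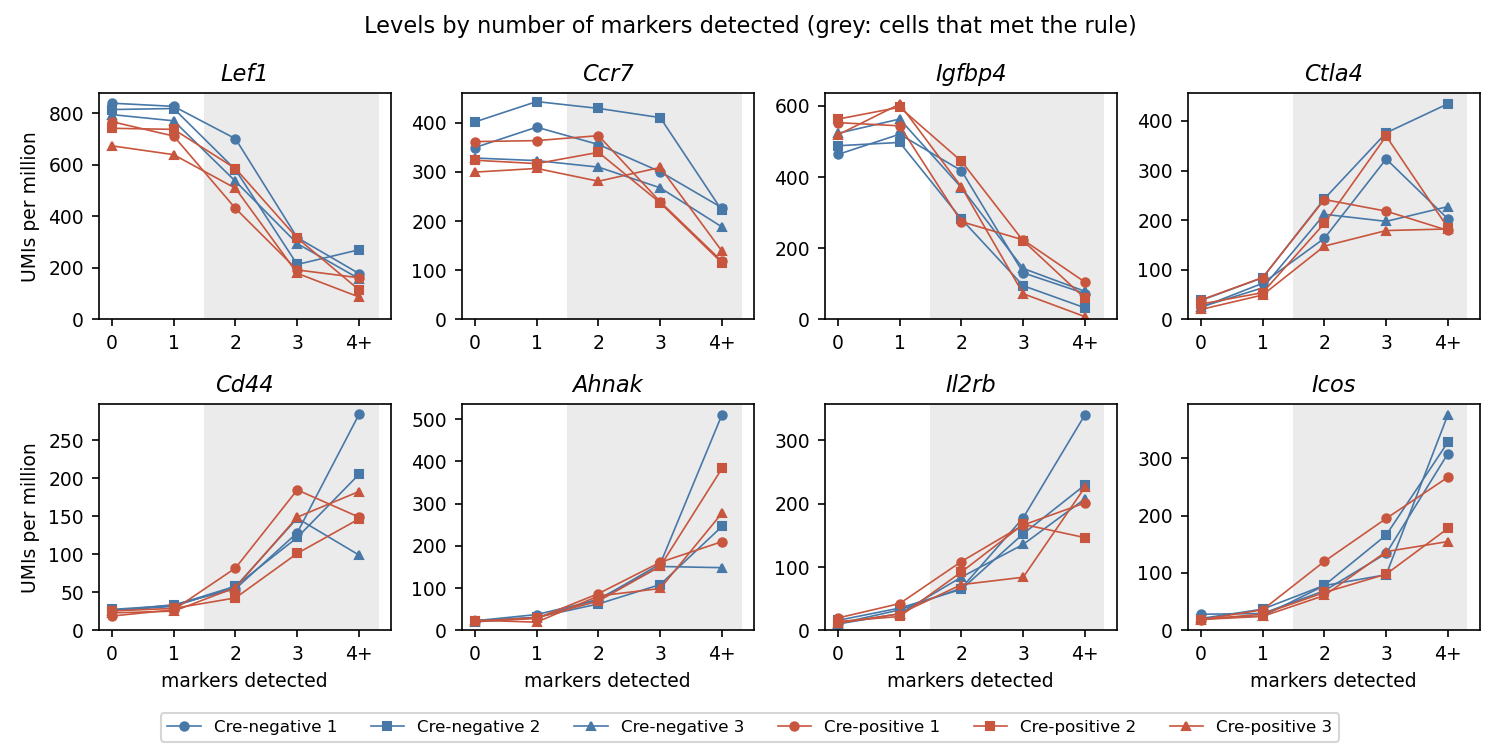
CPM of 8 genes in gated CD4 T cells with 0, 1, 2, 3 and 4 or more of the 7 markers; each line is a mouse and the grey area marks the marker-gated cells. Lef1 and Igfbp4 fall with the number of markers (Lef1 from a mean of 772 to 162), Ccr7 is lowest with 4 or more, while Cd44, Ahnak, Il2rb and Icos rise and the mean of Ctla4 peaks at 3 markers.

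To see how the 1455 cells differ among themselves they were clustered on variable genes after the genes of the gate and of the antigen receptor, those of ribosomes and mitochondria, and sex-linked genes had been set aside. This gave 13 clusters, which are described by their leading genes and were not tested, as the same genes made them. Levels in the following paragraphs are CPM in a cluster against those in all other marker-gated cells.

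Clusters 3, 4 and 5 were led by genes of naive cells and together held 514 cells, or 35.3%. Igfbp4 stood at 630, 628 and 740 in them. Lef1 reached 805, 893 and 988 against 383, 400 and 411. In cluster 3, Dapl1, a gene abundant in naive T cells, stood at 402 against 121. Of the cells of these 3 clusters, 94.1%, 95.9% and 90.8% had exactly 2 markers. The 3 clusters took 45.3%, 36.3% and 32.2% of the marker-gated cells in Cre-negative 1, 2 and 3, and 22.7%, 38.6% and 35.3% in Cre-positive 1, 2 and 3, so the groups overlapped and Cre-positive 1 was lowest.

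Cluster 1, with 263 cells or 18.1%, was led by genes of migratory memory cells. S100a6, a calcium-binding protein, stood at 548 against 75.2, and the glycan-binding protein gene Lgals1 at 395 against 106. Anxa2, an annexin, stood at 85.0 against 23.5, Ahnak at 223 against 95.4 and the nuclear receptor gene Rora at 110 against 44.7. Il18r1, a receptor chain for interleukin 18, stood at 104 against 34.4. It held 31.8% of the marker-gated cells of Cre-positive 1 and 12.3% to 16.5% of those of each other mouse.

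Cluster 2, with 228 cells, had 11 of 16 genes of the follicular helper list at 2-fold or more above the other cells (with 10 CPM added to both), against 2.64% of all genes. It also had 8 of 20 genes of the regulatory T cell list at 2-fold or more. Here and for the next lists, genes with at least 10 CPM in the cluster or in the other cells were counted, without those of the gate. Tnfsf8, the CD30 ligand, stood at 903 against 97.7 and Ctla4 at 764 against 133. Lag3, an inhibitory receptor that binds MHC class II, stood at 111 against 10.97. Nt5e, the ectoenzyme CD73 that makes adenosine, stood at 155 against 26.8, and the surface glycoprotein gene Cd200 at 252 against 48.2. Ifng, the cytokine of type 1 helper cells, reached its highest level here at 134, and Il10 stood at 45.3 and was at 0 in 11 of the other clusters.

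Cluster 7, with 88 cells, had 15 of 19 genes of the regulatory T cell list at 2-fold or more, against 2.81% of all genes, although every cell had 0 Foxp3 UMIs by the rule. Of the follicular helper list it had 5 of 15 genes at 2-fold or more. Ikzf2 stood at 1061 against 93.3, and its relative Ikzf4 at 151 against 12.6. The receptor genes Tnfrsf4 (OX40) and Tnfrsf9 (4-1BB) stood at 608 against 85.8 and at 166 against 13.3. Il2ra, the alpha chain of the interleukin 2 receptor, stood at 166 against 18.2. Whether Foxp3 RNA was present and missed in these cells cannot be told from a count of 0 in 1 cell.

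Cluster 10, with 57 cells, was led by genes of innate-like T cells. Zbtb16, which encodes the transcription factor PLZF, stood at 226 against 1.74, and the constant segments Tcrg-C2 and Tcrg-C4 at 212 against 1.74 and 163 against 2.67. The chemokine gene Xcl1 stood at 117 against 3.48, the interleukin 25 receptor gene Il17rb at 92.5 against 1.16 and Il4 at 58.4 against 1.86. It held 12 UMIs of the receptor segment Trav11 and 7 of Traj18, and all other clusters held 1 of Trav11 and 1 each of Traj18 in clusters 3 and 5. Both segments belong to the invariant receptor of natural killer T cells. Of its cells, 56.1% had 4 or more markers, and the level of Cxcr6 was 336.

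Cluster 6, with 97 cells, was led by stress and immediate early genes, among them Ddit4 at 118 against 28.1, Fos at 702 against 279 and the early activation marker Cd69 at 1047 against 434. Cluster 11, with 42 cells, had 30 of 32 genes of the MYC and nucleolar list at 2-fold or more, against 5.79% of all genes, with the chaperone gene Hspd1 at 956 against 153 and Srm, an enzyme of polyamine synthesis, at 124 against 17.5. Cluster 9, with 69 cells, was led by the transcription factor gene Myb at 101 against 23.6 and had Ccr7 at 692 against 289.

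Cluster shares did not overlap between the groups of 3 mice in 2 of 13 clusters, or 15.4%. Cluster 9 took 5.29% to 8.49% of the marker-gated cells in Cre-negative mice and 2.35% to 4.36% in Cre-positive mice. Cluster 11 took 1.89% to 1.94% and 2.35% to 4.98%. With so few cells per mouse these shares were not tested.

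The small clusters 8, 12 and 13 went against the label. Cluster 8, with 75 cells, was led by Lyz2, the lysozyme of macrophages and monocytes, at 6760 against 41.0, and by the MHC class II genes H2-Eb1 at 4367 against 65.8 and H2-Aa at 5675 against 110. Cluster 12, with 11 cells, was led by Tmem176a at 2009 against 33.3. Cluster 13, also with 11 cells, was led by Siglech, a lectin of plasmacytoid dendritic cells, at 2194 against 1.35, and by the transcription factor gene Tcf4.

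The T cell criteria were weakly met by part of these cells. A single Cd3 UMI was all that 17 of the 75 cells of cluster 8 and 7 of 11 cells in each of clusters 12 and 13 had, while the median was 11 to 23 Cd3 UMIs in clusters 1 to 11. Doublet calls covered 33.3% of cluster 8. The 3 clusters held 97 cells, or 6.67% of the marker-gated cells, with 3.88% to 10.1% by Cre-negative mouse and 4.31% to 8.10% by Cre-positive mouse. All comparisons below were also made without them, a setting chosen after the clusters were seen.

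**Figure D3:**
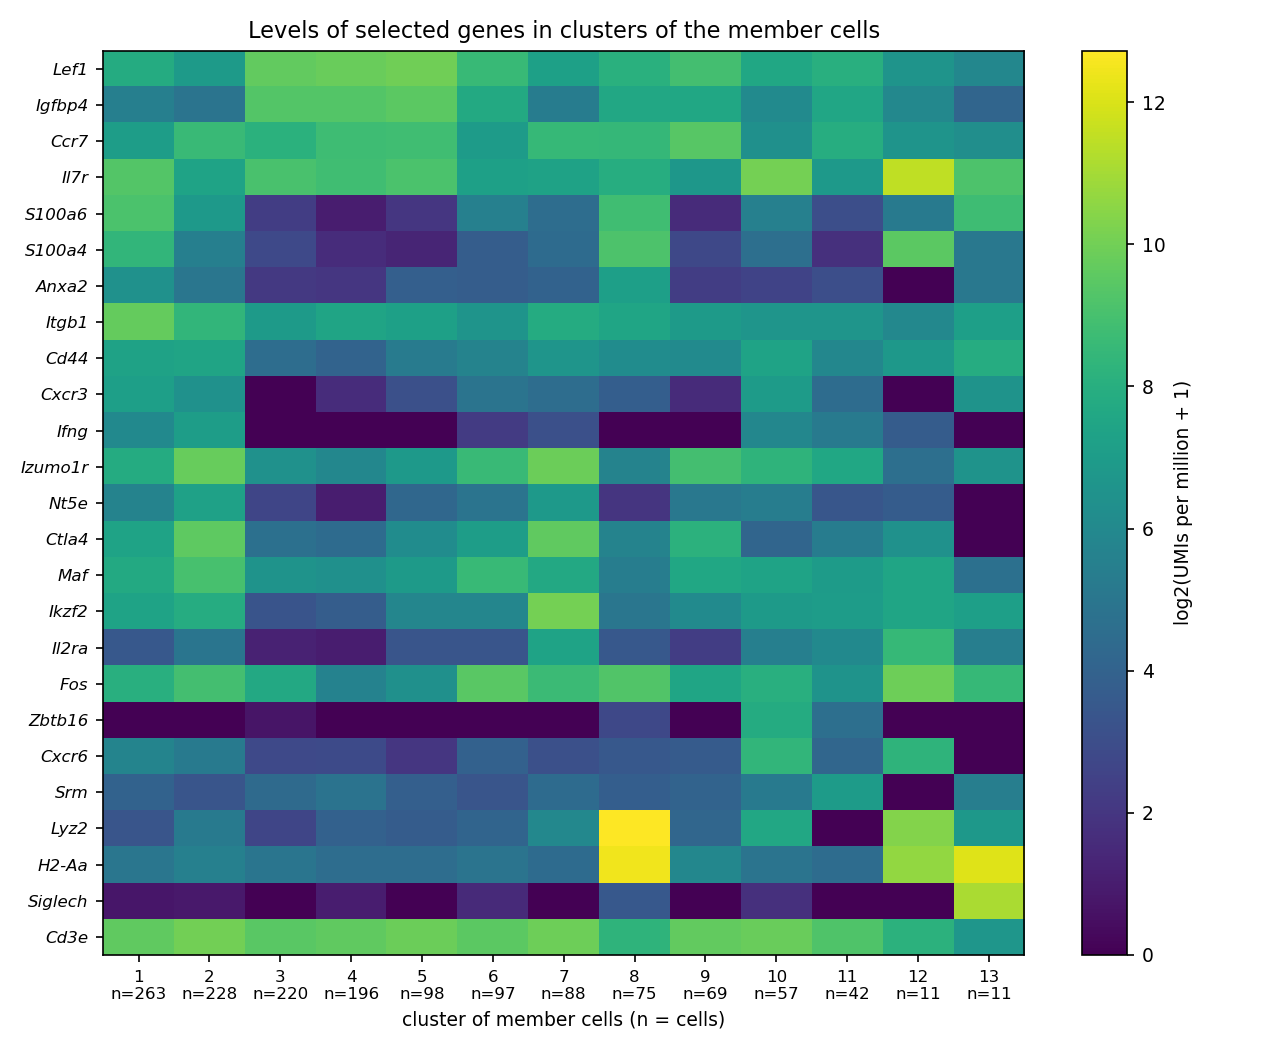
Level of selected genes, as log2 of CPM plus 1 (color), in each of the 13 clusters of marker-gated cells (columns, ordered by size). Igfbp4 and Lef1 are high in clusters 3, 4 and 5, S100a6 in clusters 1, 8 and 13, Ikzf2 in cluster 7, Zbtb16 in cluster 10, and Lyz2 or Siglech in clusters 8 and 13.

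The marker-gated cells were next compared with the 6183 cells of the same gate in which none of the 7 markers was found, with UMIs summed per mouse and class. Most tested genes of the type 1 helper list (8 of 12) and of the regulatory T cell list (15 of 18) were called higher in the marker-gated cells, and 9 of 22 costimulatory and inhibitory receptors. Of 24 genes of quiescence 1 was called, and it was lower. The test was the edgeR quasi-likelihood test with the mouse as a block and Benjamini-Hochberg adjustment, and a gene was called at an adjusted p under 0.05 and at 2-fold or more. The 23 genes of the rule were left out. The low-count filter admits a gene that is high enough in either class. Genes near 0 in the cells without markers, such as Ifng (14 UMIs) and Lag3 (19 UMIs), were tested only through the marker-gated cells. The shares of tested list genes called higher lean upward for this reason and are no test of a list. Of 9194 genes, 434 (4.72%) were called higher in the marker-gated cells and 27 (0.294%) lower, 5.01% in all, and the median log2 difference over all genes was -0.00.

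Without clusters 8, 12 and 13 the calls were 266 higher (2.95%) and 28 lower (0.311%) of 9013, and 268 calls were shared by both settings. Of the 15 genes with the largest rise, H2-M2, Atf3, Siglech, Zeb2, Mpeg1, Spi1, Fcer1g, Plbd1, Ifitm3 and Cbfa2t3 no longer passed the low-count filter without these clusters. The other 5, S100a6, Ifng, Ifitm2, Lgals3 and Lag3, were called in both. Levels from here on are CPM, scaled by the TMM factors of edgeR, as the lowest, median and highest of 6 mice, and differences are log2 values with their standard error (SE).

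S100a6 (chromosome 3, 90612882 to 90624181 on mm10) had 61.2, 152 and 257 in the marker-gated cells and 0.457, 2.25 and 3.75 in the cells without markers. The classes did not overlap, and Cre-positive 1 was highest. The difference was 6.24 (SE 0.301, edgeR adjusted p = 1.09e-05), and 5.91 without the 3 clusters.

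Ifng (chromosome 10, 118441046 to 118445892) had 17.7, 33.7 and 60.8 against 0.214, 0.468 and 1.25. Every mouse had more than 10 times the level in its marker-gated cells, on 297 UMIs in all against 14. The difference was 5.95 (SE 0.256, edgeR adjusted p = 4.89e-26). It was 6.11 without the 3 clusters.

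Lag3 (chromosome 6, 124904361 to 124911705) had 20.4, 24.3 and 28.7 against 0.214, 0.703 and 1.37. The marker-gated levels were close to each other in all 6 mice and far above the others. The difference was 5.08 (SE 0.263), and 5.14 without the 3 clusters.

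Of 24 genes of the type 1 helper list, 12 were tested and 8 were called higher, with 8 also without the 3 clusters. Bhlhe40, a transcription factor that supports cytokine production in helper cells, had 141, 145 and 200 against 6.93, 11 and 14.0, a difference of 3.88 (SE 0.0877). Nkg7, a granule protein, differed by 3.40 and Il18rap, an interleukin 18 receptor chain, by 4.10. Ccl5, a chemokine of memory cells, had 27.2, 141 and 333 against 3.65, 17.9 and 74.3, so its levels overlapped between mice, and it differed by 2.74, or 1.60 without the 3 clusters, and its call was lost after thinning (edgeR adjusted p = 0.0649). Stat4, which passes on the interleukin 12 signal, differed by 0.26, and Tbx21, the defining factor of the programme, had 34 UMIs against 3 and was under the filter.

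The other helper lists had fewer tested genes. Of 17 type 2 genes 8 were tested and 3 called higher, and the lineage factor Gata3 differed by 0.38, short of 2-fold. Of 23 type 17 genes 13 were tested and 7 called higher, or 4 of 11 without the 3 clusters. Rora had 44.6, 53.3 and 79.6 against 5.25, 7.28 and 8.58, a difference of 3.05, and 2.87 without them. Tmem176b differed by 4.19, and by 1.22 without them.

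Of 24 regulatory list genes 18 were tested, and 15 were called higher although cells with Foxp3 were excluded (13 of 17 without the 3 clusters). Ctla4 had 168, 219 and 296 against 24.2, 33.0 and 46.0, a difference of 2.74 (SE 0.0641). The classes did not overlap in any of the 6 mice. Ikzf2 had 122, 147 and 189 against 19.3, 28.7 and 32.0 and differed by 2.62. Nrp1, a coreceptor for semaphorins, differed by 4.18 and Nt5e by 3.71.

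Of 25 follicular helper genes 16 were tested and 8 called higher, with the 5 genes of the gate left out and with 8 calls also without the 3 clusters. Izumo1r had 286, 301 and 410 against 53.7, 65.0 and 94.6, a difference of 2.29 (SE 0.0524). Cd200 differed by 3.30, Tnfsf8 by 2.48 and Icos by 2.25. Tbc1d4, a regulator of vesicle trafficking, differed by 2.81. These genes rose together in cells from which cells with 2 or more of Cxcr5, Pdcd1, Il21, Bcl6 and Tox2 had been left out.

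Of 28 memory and migration genes 25 were tested, and 9 were called higher. Cd44 had 66.9, 87.2 and 122 against 22.0, 29.3 and 32.8, a difference of 1.71. Ahnak differed by 2.24, Anxa2 by 2.67 and Il2rb by 2.91. Other members did not reach 2-fold: Lgals1 differed by 0.90, S100a10 by 0.55 and Crip1 by -0.24.

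Of 24 naive and quiescence genes all were tested, 22 were lower in the marker-gated cells and 1 was called, with a list median of -0.45. Igfbp4 had 219, 282 and 361 against 526, 623 and 650. Its difference was -1.01 (SE 0.126). It fell short of 2-fold without the 3 clusters (-0.93), without Cre-negative 2 (-0.96), without Cre-positive 1 (-0.94) and without Cre-positive 3 (-0.98), and also at a limit of 5% mitochondrial UMIs (-0.85).

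Lef1 had 324, 469 and 592 against 807, 924 and 971, without overlap. It differed by -0.93 (edgeR adjusted p = 0.00115) and was called without Cre-negative 1. S1pr1, the receptor for leaving the node, differed by -0.76, Klf2 by -0.61, Ccr7 by -0.28 and Tcf7 by -0.22. With 3 or more markers required, Lef1 (-2.05), S1pr1 (-1.21) and Klf2 (-1.06) passed both limits.

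Among the genes with the largest falls, Pdlim4, an actin-associated protein, had 42.7, 67.5 and 77.1 against 185, 205 and 221, a difference of -1.58 (SE 0.0695). The classes did not overlap, and the value was -1.63 without the 3 clusters. Prf1, perforin, differed by -1.55, the exchange factor gene Rapgef4 by -1.30 and the adhesion gene Amigo2 by -1.26. Rgmb differed by -1.12, and fell just short of 2-fold without Cre-negative 2 (-0.98) or without Cre-negative 3.

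Of 30 antigen-signal genes 29 were tested and 11 called higher, among them the nuclear receptor gene Nr4a2 (2.78) and Egr2 (1.98). Of 20 NF-kB feedback genes 3 were called, and 1 without the 3 clusters. Tnfaip3, the inhibitor A20 of this pathway, differed by 0.08 (edgeR adjusted p = 0.0988). Survival genes of the BCL2 family split: Bcl2a1b differed by 2.60, and by 2.42 without the 3 clusters, while Bcl2 itself differed by -0.57. Bcl2a1b has near-identical relatives between which reads can be split, so its value is uncertain. Of 52 type I interferon response genes 38 were tested and 1 was called, with a median of -0.08, and of 32 MYC and nucleolar genes none was called.

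Markers of other cells moved with this comparison. Of the genes tested, 6 of 10 B cell, 6 of 7 monocyte and macrophage and 5 of 6 dendritic cell markers were called higher, and 0 of 10, 0 of 4 and 0 of 3 without clusters 8, 12 and 13. The summed level of the 14 monocyte and macrophage markers was 735 to 2813 by mouse in the marker-gated cells, 325 to 422 without the 3 clusters and 262 to 362 in the cells without markers. Lyz2 had 15.7, 471 and 1306 against 11.8, 31.4 and 86.8, and its difference of 4.04 turned to -0.29 without the 3 clusters. H2-Aa went from 3.96 to -0.13, Mef2c from 2.72 to -0.07 and Cd74 from 4.06 to 0.07.

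Zbtb16 had 108 UMIs in the marker-gated cells and 0 in the cells without markers, at least 123-fold higher against a floor of 3 UMIs over the class. Tcrg-C4 had 90 against 0, at least 102-fold higher. Of the 13 natural killer T and innate-like markers 5 were tested and 4 called higher, and these calls were also 4 without the 3 clusters, which do not include the Zbtb16 cluster. Of 12 gamma-delta markers in the files 4 were tested and all were called (2 of 2 without the 3 clusters). Genes at 0 in the cells without markers can pass the low-count filter only through the marker-gated cells. The counts of calls for these lists are thus no test of them. Trdc was at 0 by the rule.

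**Figure D4:**
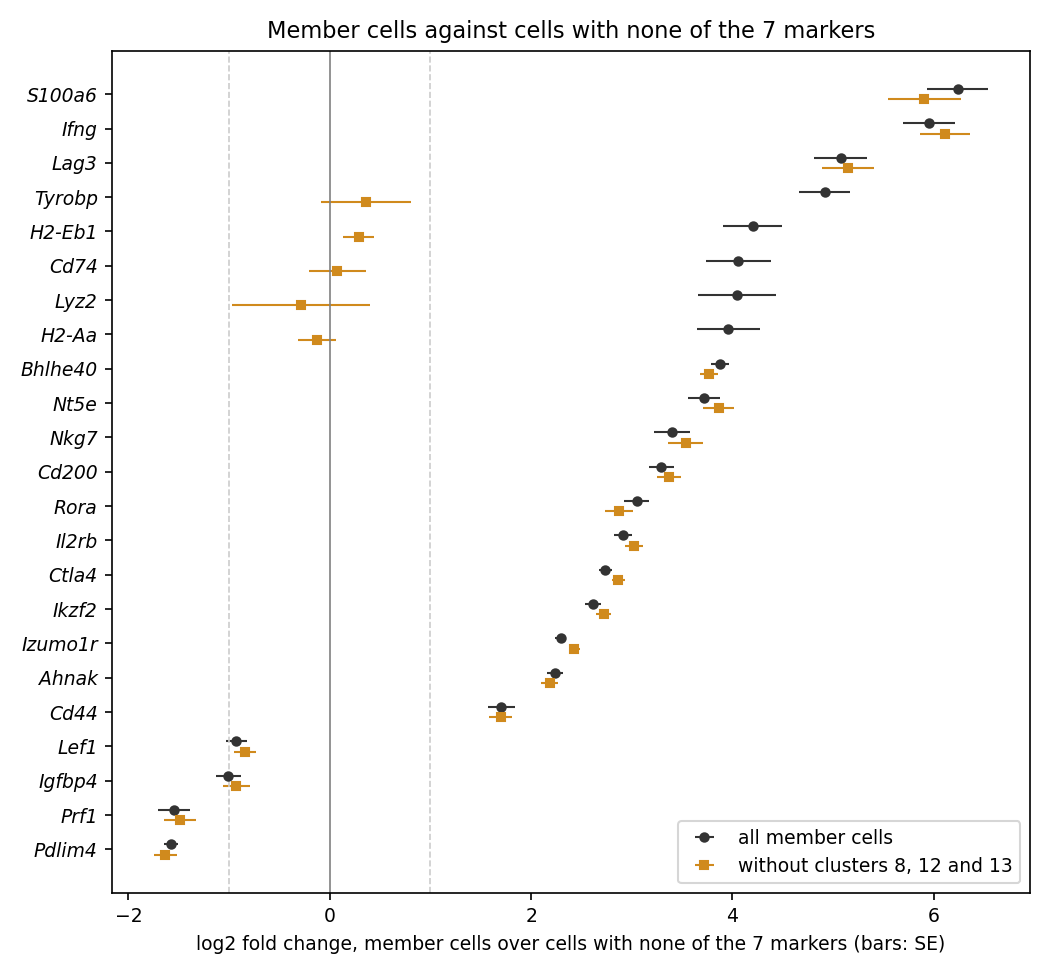
Log2 difference between marker-gated cells and cells with none of the markers, with its SE, for named genes; one symbol shows all marker-gated cells and the other the cells without the clusters led by Lyz2, Tmem176a or Siglech. Ifng, Lag3 and Ctla4 keep their value (Ctla4 2.74 and 2.86), while Lyz2, Cd74 and H2-Aa drop to near 0.

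The marker-gated cells were then compared with 210 follicular helper-like cells. These met the same Cd4, Cd3 and exclusion criteria and held 2 or more of Cxcr5, Pdcd1, Il21, Bcl6 and Tox2. They could hold any number of the marker genes, so the classes differ in the marker rule too. In this comparison, requiring 3 markers changed only the marker-gated class. Against the follicular cells 11 of 24 naive and quiescence genes were called higher in the marker-gated cells and 10 of 18 follicular helper genes lower. Of 21 costimulatory and inhibitory receptors 3 were called lower, and of 10 chemokine and homing receptors 3 were called higher and 1 lower. Of 6660 genes, edgeR called 105 (1.58%) higher and 104 (1.56%) lower in the marker-gated cells, 3.14% in all. Without clusters 8, 12 and 13 the counts were 87 (1.36%) and 119 (1.86%) of 6400, with 166 calls shared. The follicular class held 23 to 60 cells per mouse, and cells with myeloid genes were not removed from it.

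The naive and quiescence genes had a median difference of 0.99 against -0.01 over all genes. Igfbp4 had 219, 282 and 361 in the marker-gated cells and 14.1, 35.1 and 74.6 in the follicular cells. The classes did not overlap, and the difference was 2.89 (SE 0.174, edgeR adjusted p = 1.64e-15). Pdlim4 differed by 3.10, S1pr1 by 1.93, Klf2 by 1.75 and Lef1 by 1.44. Lef1 lost its call with 3 markers required (0.35, edgeR adjusted p = 0.231) and after thinning (adjusted p = 0.0755). Il7r, the interleukin 7 receptor that supports survival, had 349, 412 and 523 against 54.0, 127 and 310 and differed by 1.52.

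Plac8 had 480 UMIs in the marker-gated cells and 0 in the follicular cells, at least 25.5-fold higher against a floor of 3 UMIs. Without the 3 clusters it was under the filter, as were Tyrobp, Atf3, Ctsh and Cd63, which were also among the 8 largest rises. Ly6a, the surface protein Sca-1, differed by 2.27 and lost its call without Cre-negative 2, without Cre-negative 3 or without Cre-positive 3, with edgeR adjusted p of 0.0634, 0.0658 and 0.0657, and at a limit of 5% mitochondrial UMIs (1.72, adjusted p = 0.176).

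Of 25 follicular helper genes 18 were tested. All 18 were lower in the marker-gated cells and 10 were called, with a median of -1.12. Besides the marker rule, the classes were split by 5 genes that belong to this list, so this direction is not independent of the choice of cells. Ascl2, a factor that turns on Cxcr5, had 0, 0 and 1.45 against 13.6, 25.1 and 34.4, and its 4 UMIs against 41 gave a difference of -5.41. It could pass the low-count filter only through the follicular class. Pou2af1, a B cell coactivator also used by follicular helper cells, differed by -2.61. Sh2d1a, the adaptor SAP needed for lasting contact with B cells, had 103, 122 and 148 against 275, 337 and 594, a difference of -1.65 without overlap.

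Izumo1r differed by -1.07, and by -0.93 without the 3 clusters, where it was not called. Ikzf2 differed by -1.65, Tnfsf11, the ligand RANKL, by -1.38, Tbc1d4 by -1.20 and Tox, a factor of chronic stimulation, by -1.18. With 3 markers required, Ikzf2 (-1.23, edgeR adjusted p = 0.0640), Tnfsf11 (-0.93) and Tbc1d4 (-0.76) were not called, nor was Tbc1d4 after thinning (-0.98). Icos (-0.65) was not called. Cd200 differed by -0.96 and was called without Cre-negative 2 (-1.06), without Cre-positive 1 (-1.16) and at a limit of 5% mitochondrial UMIs (-1.20). S100a6 had 0, 72.3 and 273 in the follicular cells, which covered the whole range of the marker-gated cells, and differed by 0.53 (SE 0.580, edgeR adjusted p = 0.691). After thinning it was called higher in the marker-gated cells (1.65, adjusted p = 0.00455).

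The third comparison was with 357 cells that met the same marker rule but held Foxp3, the factor of regulatory T cells. Against them 15 of 18 regulatory list genes were called lower in the marker-gated cells, and Cd40lg, Ifng and 9 of 24 naive genes higher. Of 6897 genes, edgeR called 65 (0.942%) higher and 102 (1.48%) lower, 2.42% in all. Without clusters 8, 12 and 13 the counts were 49 (0.738%) and 119 (1.79%) of 6637, with 135 calls shared. The Foxp3 class held 45 to 73 cells per mouse.

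All 18 regulatory list genes tested were lower in the marker-gated cells and 15 were called, with a median of -1.57 against -0.00 over all genes. Foxp3, which split the classes, belongs to this list, so this direction is not independent of the choice of cells. Ikzf2 had 122, 147 and 189 against 677, 716 and 791, a difference of -2.29 (SE 0.0750, edgeR adjusted p = 6.38e-23). Il2ra had 12.8, 28.9 and 42.3 against 117, 156 and 233 and differed by -2.68. The classes did not overlap in either gene, and in both the marker-gated cells lay between the Foxp3 cells and the cells without markers.

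Lrrc32, which displays latent TGF-beta on regulatory cells, differed by -3.02, Ikzf4 by -2.02 and the integrin gene Itgae by -2.02. Ctla4 had 168, 219 and 296 against 579, 694 and 826, a difference of -1.70. Tnfrsf9 differed by -1.76, Tnfrsf4 by -1.67, Nt5e by -1.21 and Tnfrsf18 by -1.16. With 3 markers required Tnfrsf9 (-1.08, edgeR adjusted p = 0.0623) and Nt5e (-0.92) were not called. Lag3 (-0.80) did not reach 2-fold, except at a limit of 5% mitochondrial UMIs (-1.03).

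Cd40lg, the ligand through which helper cells activate B cells and dendritic cells, had 71.8, 91.9 and 106 against 14.9, 23.0 and 47.1. It was higher in the marker-gated cells of all 6 mice and differed by 1.66 (SE 0.176), and lost its call with 3 markers required (2.04, edgeR adjusted p = 0.0745). Ifng differed by 1.74, Il7r by 1.39 and Gpr183, the oxysterol receptor for positioning in the node, by 1.37. Il7r fell to 0.70 after thinning (edgeR adjusted p = 0.152) and was not called. Among the naive genes Lef1 differed by 1.28 and Klf2 by 1.20, and Lef1 fell short of 2-fold with 3 markers required (0.80). Apoe differed by 3.52 but lost its call without Cre-negative 1, Cre-positive 1 or Cre-positive 2 (edgeR adjusted p of 0.0703, 0.0530 and 0.0784) and was under the filter without the 3 clusters.

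The labels' own contrast is that of mice with and without CD4-Cre. Within the marker-gated cells no gene of 8169 passed an adjusted p of 0.05 in edgeR (0.0%). At an unadjusted p of 0.05, 380 genes (4.65%) passed, and 833 (10.2%) did not overlap between the groups. DESeq2 called 1 gene, Cxcl2, a neutrophil-attracting chemokine, and 117 genes were under an unadjusted p of 0.05 there. The genes below are the 10 of smallest p and a few that were always reported, and none of them passed in edgeR with its filter. Without the low-count filter 32 genes passed, among them Cd209a, Kpna4, Cd63, Hist1h1e, Fbxo6, Tagln2, Ctsb, Ifitm2, Lgals1 and Dapl1.

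Cd209a, a lectin of dendritic cells, had 4.12, 7.84 and 7.82 in Cre-negative 1, 2 and 3 and 18.8, 20.7 and 21.2 in Cre-positive 1, 2 and 3. The groups did not overlap, and the log2 difference, Cre-positive over Cre-negative, was 1.65 (SE 0.318, edgeR adjusted p = 0.125). It was under the filter without clusters 8, 12 and 13. Cd63, a tetraspanin of endosomes, had 17.1, 20.4 and 19.1 against 29.7, 36.4 and 43.1 (0.94, adjusted p = 0.337) and was likewise under the filter without them.

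Kpna4, an importin of nuclear transport, had 230, 221 and 210 against 164, 144 and 174. The Cre-positive mice were all lower, with a difference of -0.48 (SE 0.108, edgeR adjusted p = 0.337) and -0.47 without the 3 clusters. The linker histone gene Hist1h1e had 45.9, 56.5 and 39.9 against 31.1, 22.1 and 29.5, a difference of -0.82. Fbxo6, a ubiquitin ligase subunit, had 7.06, 10.2 and 2.61 against 18.8, 17.2 and 18.1, a difference of 1.39.

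The lysosomal protease gene Ctsb had 118, 114 and 113 against 163, 157 and 246. Its difference was 0.70 (edgeR adjusted p = 0.508), it passed without Cre-positive 2 (0.83, adjusted p = 0.0433), and it was 0.30 without the 3 clusters. Tagln2 differed by 0.46, Epc1 by -0.43, Mfge8 by -1.65 and Ifitm2 by 0.96, each with an adjusted p of 0.508. The summed level of the 14 monocyte and macrophage markers was 735 to 1475 in Cre-negative and 1051 to 2813 in Cre-positive mice, and 325 to 414 and 325 to 422 without the 3 clusters.

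Tnfaip3 (chromosome 10, 19000910 to 19015657) had 577, 526 and 438 in the Cre-negative and 447, 412 and 397 in the Cre-positive mice. The groups overlapped by 1 mouse, and the difference was -0.31 (SE 0.103, edgeR adjusted p = 0.844). Pmepa1, a target of TGF-beta that limits its signal, differed by 0.22, and Trim59, a ubiquitin ligase, by -0.13. Without Cre-negative 1 both changed sign, to -0.08 and 0.00. Lxn had 5, 4 and 8 UMIs against 10, 16 and 14 and was under the filter.

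Gh, the growth hormone gene (chromosome 11, 106300271 to 106301865), had 0 UMIs in the marker-gated cells of each Cre-negative mouse and 8, 16 and 19 in those of Cre-positive 1, 2 and 3. It was found in 42 of 777 Cre-positive cells, or 5.41%, with an exact 95% interval (Clopper-Pearson) from 3.92% to 7.24%. None of the 678 Cre-negative cells held a UMI, which allows a share of cells with a UMI of up to 0.442% (3 cells), or 0.543% by the upper bound of the Clopper-Pearson interval. Interval and limit cover counting error only. In B cells, where CD4-Cre is not active, the shares were 0.574% of Cre-negative and 0.494% of Cre-positive cells. B cells had a median of 4486 and 4264 UMIs in these groups, and marker-gated cells 5528 and 5547. The cells without markers held it in 0% and 6.095%. The level was at least 12.4-fold higher in Cre-positive marker-gated cells against a floor of 3 UMIs over the group. The gene was under the filter of the test with all 6 mice and was called without Cre-positive 1.

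The gene lists gave small shifts and no calls. Of 24 naive and quiescence genes 19 were lower in Cre-positive mice, with a median of -0.11 against 0.00 over all genes. Without Cre-negative 1 this was 14 of 24, and after thinning 10 of 20. Lef1 had 592, 476 and 462 against 324, 484 and 388 (-0.37), so the groups overlapped. Satb1, a chromatin organizer of T cells, had 599, 525 and 485 against 412, 460 and 408, and did not overlap (-0.34, edgeR adjusted p = 0.683). Cre-positive 1 was lowest in Lef1 and had the fewest cells in the clusters led by Igfbp4 and Lef1. As Lef1 is a leading gene of these clusters, its level and their share are not independent.

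Of 24 tested memory and migration genes 17 were higher, with a median of 0.14. Lgals1 had 109, 101 and 164 against 218, 152 and 191 and differed by 0.57 (edgeR adjusted p = 0.988). Of 14 glucocorticoid response genes 11 were lower, with a median of -0.12, and at a limit of 5% mitochondrial UMIs 7 of 14 were. Of 34 tested type I interferon response genes 17 were higher and 17 lower. All 10 tested monocyte and macrophage markers were higher, with a median of 0.72, and 1 of 3 was without the 3 clusters.

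**Figure D5:**
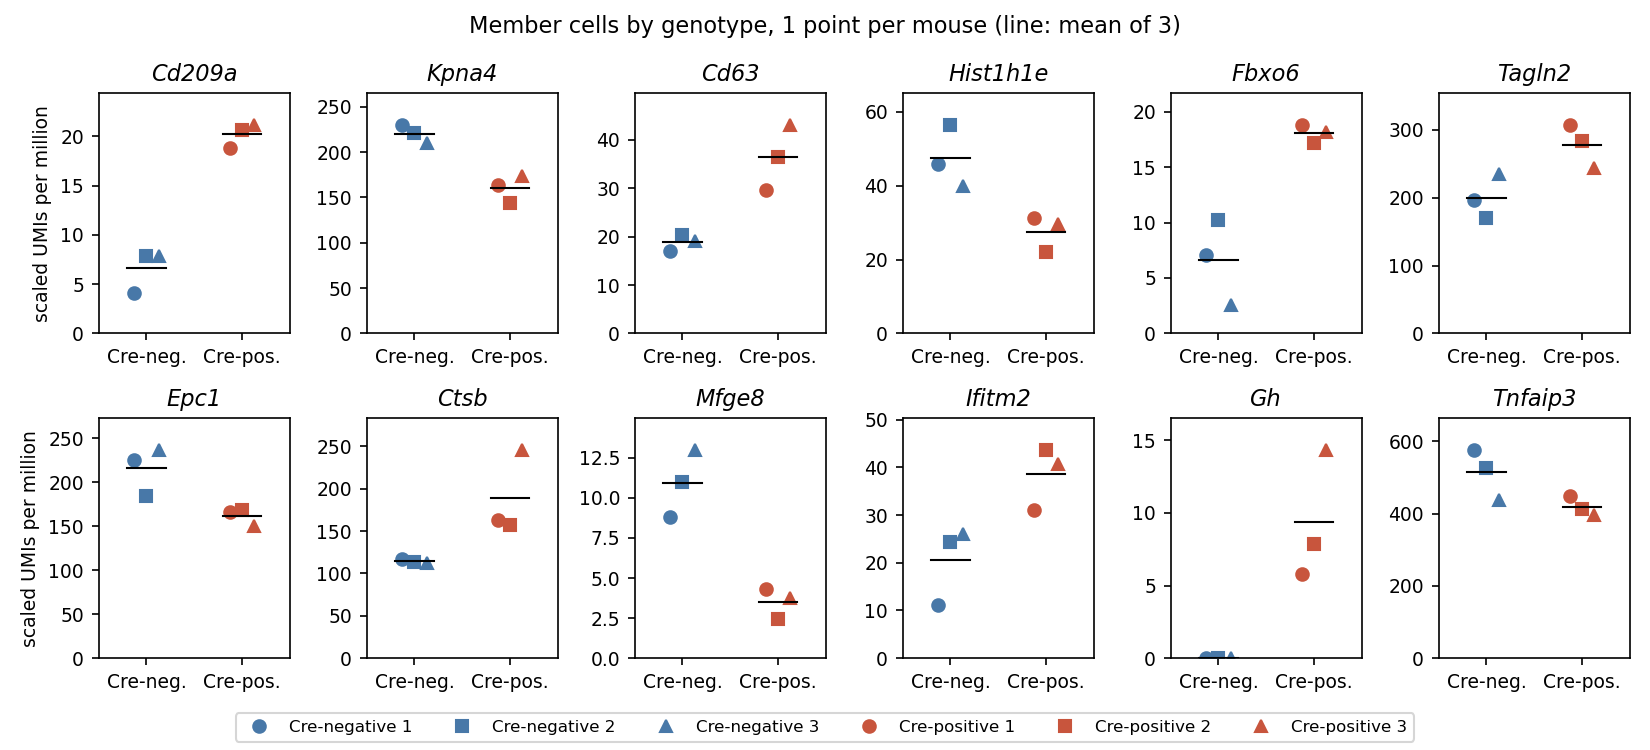
Scaled CPM of 12 genes in the marker-gated cells of each mouse, Cre-negative and Cre-positive; points are mice and lines are group means. No gene passed the adjusted threshold in edgeR; Cd209a and Kpna4 do not overlap between the groups, Tnfaip3 does, and Gh is at 0 in all 3 Cre-negative mice.

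Whether the effect of genotype differed between marker-gated cells and cells without markers was tested as an interaction over 12 sums. Of 9896 genes, 2 (0.0202%) passed an adjusted p of 0.05 in edgeR, Dapl1 and Irf1, and 489 (4.94%) were under an unadjusted p of 0.05. Dapl1 (chromosome 2, 59484653 to 59505020) had 184, 212 and 215 in the marker-gated cells of Cre-negative and 94.1, 158 and 173 in those of Cre-positive mice. In the cells without markers it had 339, 346 and 349 against 309, 389 and 374. The effect in marker-gated cells was lower by 0.59 on the log2 scale (SE 0.105, adjusted p = 0.0150).

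Irf1, the transcription factor of the interferon-gamma response (chromosome 11, 53770014 to 53778374), had 256, 181 and 229 against 172, 162 and 198 in the marker-gated cells, and 253, 176 and 231 against 236, 240 and 243 in the cells without markers. The effect in marker-gated cells was lower by 0.48 (SE 0.0933, edgeR adjusted p = 0.0292). Within marker-gated cells alone neither gene passed (edgeR adjusted p = 0.988 for Dapl1 and 0.917 for Irf1). Without the 3 clusters the edgeR adjusted p of the interaction was 0.178 for Dapl1 and 0.127 for Irf1. Both calls were also lost without Cre-negative 3 (0.141 and 0.109) and without Cre-positive 2 (0.105 and 0.807), and that of Irf1 without Cre-negative 1.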

How the data were processed

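Single-cell RNA libraries of 6 mice (3 Cre-negative, 3 Cre-positive) were used. The files the authors deposited hold unnormalized UMI counts for each gene in each barcode. The submitters' processing notes name Cell Ranger 6.1.2 and mm10, and no source used here gives the annotation release. Positions of genes came from GENCODE M21 of the same build, which matched 30934 of 31053 features. Values of the floxed gene and of a few others are not given here.

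A barcode was kept with at least 500 UMIs, at least 300 genes and at most 10% mitochondrial UMIs. Scrublet, run in scanpy 1.11.5, scored doublets. The highest scores of each library were flagged at a preset rate of 0.8% per 1000 barcodes, and the flagged cells stayed in the main results. Cells were gated by detected genes as the report states. UMI counts were summed per mouse and class and tested with edgeR 4.0.16 in R 4.3.3 (quasi-likelihood, TMM, its low-count filter, robust dispersions, Benjamini-Hochberg over all genes tested). Per the labels' protocols every library came from its own mouse. Class comparisons had the mouse as a block, and the genotype comparison had no block. The SE, a log2 difference divided by the root of its F value, is no measure of precision for genes near 0 in a class. Shares used exact permutation tests over mice. Clusters came from the Leiden method (leidenalg 0.10.2) on 2000 variable genes with 20 components, 20 neighbours and a resolution of 1.0. For a cluster, "all other marker-gated cells" are the rest of the 1455.

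Named genes were, for genotype, those that passed or else the 10 of smallest p, with Gh, Pmepa1, Tnfaip3, Trim59 and Lxn always. For classes they were the called genes of largest change that moved the same way in all 6 mice at 20 CPM or more, 15 up and 10 down against cells without markers and 8 each against the other classes. List members of smallest p and defining members were added. Receptor segments, sex-linked genes, genes of the rule and unnamed models were not ranked. The cells, gene lists and tests were chosen with earlier results of these data known.

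Alternatives were DESeq2 1.42.0, no low-count filter, removal of the highest doublet scores, 3 markers, cells with 0 or 1 marker as reference, 5% mitochondrial UMIs, thinning to 2000 UMIs, the replicate number as a block, leaving out each mouse and, chosen after seeing the data, leaving out clusters 8, 12 and 13. On simulated counts the genotype test found 93% of 100 genes changed by a log2 value of 1 and 100% of those changed by 2, with 17 false calls, over 7980 genes. The changed genes were drawn only from those at 20 CPM or more, with counts drawn from the fitted dispersions. Recovery of genes at lower levels was thus not measured.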

Additional observations from a re-analysis of the deposited data

Results flagged for a closer look

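The genotype effect of Dapl1, a gene abundant in naive T cells, differed between the marker-gated cells and the cells with none of the markers by -0.59 on the log2 scale in the interaction test of edgeR (adjusted p = 0.0150). It was lower in the marker-gated cells of all 3 Cre-positive mice than in those of any Cre-negative mouse, and no such order was seen in the cells without markers. Dapl1 was a leading gene of cluster 3, which took 22.9%, 12.3% and 13.5% of the marker-gated cells in Cre-negative 1, 2 and 3 and 6.67%, 16.2% and 18.9% in Cre-positive 1, 2 and 3, so its shares overlapped. It was also a leading gene of cluster 4, at 321 CPM against 149. Cluster 4 took 10.85%, 17.9% and 13.9% in Cre-negative 1, 2 and 3. In Cre-positive 1, 2 and 3 it took 12.55%, 13.4% and 12.9%, which overlapped too. The part of this makeup in the result was not tested.

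The genotype effect of Irf1 differed in the same test by -0.48 (adjusted p = 0.0292). Its level in the marker-gated cells overlapped between the groups. Neither difference passed with DESeq2, without the highest doublet scores, with 3 markers required, at a limit of 5% mitochondrial UMIs, after thinning or without clusters 8, 12 and 13, and the direction for Dapl1 turned after thinning.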

How the results depend on the processing

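The share difference of 0.289 percentage points turned to -0.104 at a limit of 5% mitochondrial UMIs and ranged from -0.877 to 1.56 over the removal of each mouse; it was negative without Cre-negative 3 (-0.877), Cre-positive 1 (-0.263) or Cre-positive 2 (-0.131). Whether the replicate numbers pair the mice cannot be told from deviations within 3 mice per group. The correlations of these deviations between mice of the same number were 0.0286, -0.0493 and 0.152. Between mice of different numbers they ranged from -0.146 to 0.1345. With the replicate block the share difference was 0.289 (exact p = 0.75) and 2 genes passed for genotype, Cxcl2 and Pla2g2d. The genotype count of 0 became 1 with DESeq2 and 32 without a low-count filter, and was 0 to 3 over the removal of each mouse (Nts without Cre-negative 1, Timd4 without Cre-negative 3, Gh without Cre-positive 1, and Ctsb, Fabp1 and Fgl2 without Cre-positive 2). Against cells without markers, the 461 calls became 1366 without a filter, 796 with 3 markers, 304 after thinning and 294 without clusters 8, 12 and 13; the share of higher calls was 94.1%, and 78.1% with 3 markers and 72.7% after thinning. Against follicular cells, 209 became 394 without a filter, 93 with 3 markers and 49 after thinning, and against Foxp3 cells 167 became 380, 49 and 23. The interaction count of 2 became 0 with DESeq2, without the highest doublet scores, with 3 markers and after thinning, 11 without a filter, 5 at 5% mitochondrial UMIs and 1 (S100a6) without clusters 8, 12 and 13. It was 0 to 6 over the removal of each mouse, with 0 without Cre-negative 3 or Cre-positive 2. After thinning, the interaction of Dapl1 turned to 0.15 and the genotype effects of Dapl1 and Irf1 to 0.218 and 0.0153. Without the 3 clusters H2-Aa, Lyz2 and Mef2c turned to -0.13, -0.29 and -0.0742. Over the removal of each mouse Pmepa1 ranged from -0.0785 to 0.422 and Trim59 from -0.225 to 0.00386 for genotype, with the sign changed without Cre-negative 1. The causes of these shifts were not tested. Thinning left 58 to 103 marker-gated cells per mouse, which limits its fits.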

Other observations

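Haemoglobin RNA was unevenly spread over mice and classes. Hba-a1 had 0, 1.54 and 17.7 CPM (TMM-scaled UMIs per 1000000, lowest, median and highest of 6 mice) in the marker-gated cells. In the cells without markers it had 852 in Cre-negative 1 and 541 in Cre-positive 2, and between 0.228 and 40.6 in the other mice. Hbb-bs had 1307 and 989 in the same 2 mice.

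Interleukin 2 RNA was rare in the marker-gated cells. Il2 had 69 UMIs over all 6 mice, against 14 in the cells without markers, and differed by 3.89 on the log2 scale. The epidermal growth factor family member Areg, a repair factor of tissue-resident lymphocytes, had 71 UMIs against 15 and differed by 3.72, and the chemokine receptor gene Ccr4 had 61 against 11 and differed by 3.95. Without clusters 8, 12 and 13, Areg and Ccr4 were called and Il2 was under the filter.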
